A study of Mus musculus with 12 samples.

Results

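The 6 arrays described here are 3 livers taken 8 h after 100 mg/kg acetaminophen (APAP) and 3 livers taken 8 h after saline, all from mice labelled liver-null for Txnrd1. They were chosen by their titles from the 12 arrays of the series, whose other 6 arrays are wild-type livers given the same treatments. All mice were C57BL6/J males of 8 weeks, injected into the peritoneum. In the labelled liver-null mice a conditional-null allele of Txnrd1 is disrupted in hepatocytes by albCre (the recombinase Cre under the albumin promoter), and other liver cells keep the gene. The sources used here do not say whether the wild-type mice carried Cre or the conditional allele. The titles end in a different number for each array, which is used here as its name (saline 4, 5 and 16, APAP 2, 3 and 17). Every title also contains the words "mouse 8". The arrays are taken as separate mice, which the titles do not settle. The p-values and SEs rest on a spread between arrays that is estimated over all 12 arrays together, wild-type livers included. The title of the series speaks of protection against APAP toxicity, and this comparison asks how far the drug moved the liver transcriptome of the labelled liver-null mice.

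APAP is cleared in the liver mostly as glucuronide and sulfate. A smaller part is oxidised by cytochromes P450, chiefly Cyp2e1 with Cyp1a2 and Cyp3a enzymes, to the reactive quinone imine NAPQI, which glutathione captures. Once glutathione is spent, NAPQI binds proteins, and stress kinases, heat shock, antioxidant and inflammatory genes are known to respond. Txnrd1 is the cytosolic thioredoxin reductase, which passes electrons from NADPH to thioredoxin, and its loss is known to switch on targets of the transcription factor NRF2.

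No gene passed the test for a change after APAP. Tested gene by gene, 97.9% were held within 2-fold in either direction, while intervals that cover all genes at once kept 32.2% within 2-fold. The typical difference between treatments was 0.09 on the log2 scale, where 1 unit is 2-fold. All tested genes of APAP oxidation, glutathione transfer, the thioredoxin system and the respiratory chain were held within 2-fold gene by gene. Acute phase genes had lower means after APAP, and the median of that list depended on 1 saline liver. The widest gap of any gene was that of Orm2, an acute phase gene, at -2.77, which was -2.35 without that liver. Jun, a target of JNK signalling, and Dusp6, which dampens ERK signalling, had higher means after APAP. For Jun the groups overlapped, and its other probe set differed by 0.29. The list that holds both genes had a median of 0.11.

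Txnrd1 itself read 10.26, 10.47 and 10.32 on the log2 scale in saline 4, 5 and 16. It read 10.37, 10.38 and 10.58 in APAP 2, 3 and 17. The groups overlapped, and the difference was 0.10 (SE 0.11, 95% interval -0.14 to 0.33). All 6 values were above the wild-type saline mean of 9.61 ± 0.19 (SD, n = 3), which goes against the label. The other probe sets of the gene had group means of 1.40 to 1.81. The position of the probes against the deleted exons was not analysed here, so Txnrd1 is no check of the genotype, and "liver-null" below means labelled so. Nqo1, an NRF2 target, read 6.55 to 7.02 in the 6 livers against 3.88 ± 0.89 in wild-type saline livers.

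The arrays gave log2 values for 22690 probe sets, and 8469 of 12393 named genes passed a filter on low values and were tested. Correlations between pairs of the 6 arrays were 0.989 to 0.998, and at most 0.0088% of values were equal in any pair. The 75th percentile of all values was 5.53 on saline 16 and 5.58 on APAP 17, against 5.73 to 5.84 on the other 4 arrays. The labels do not name this split, which each of the 4 groups of the series shows with 1 array, and it is called the array set. All 8 hepatocyte markers were tested, and their mean lay within 0.07 of the average over the 6 livers in every array. Livers are mixtures, and fewer cells of a type and less RNA per cell cannot be told apart in any result below.

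Of the 8469 genes, 0 passed an adjusted p under 0.05 in limma with the array set as a covariate (0% called, smallest adjusted p = 0.995). At an unadjusted p under 0.05 there were 243 genes, or 2.87%, with 158 higher after APAP (1.87%) and 85 lower (1.00%). Without the covariate limma called 0 genes, and 59 had an unadjusted p under 0.05. The covariate left every difference as it was, because each group holds 1 array of the lower set, and took the median SE from 0.170 to 0.126. The unadjusted count moved with single livers, from 153 without saline 4 to 415 without saline 5.

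The differences were small in size as well. The median over all genes was 0.02 and the middle 90% ran from -0.22 to 0.26. A total of 60 genes differed by over 1.5-fold, 24 higher and 36 lower after APAP, and 18 by over 2-fold, 5 higher and 13 lower. The 18 became 11 without saline 4, 34 without saline 5 or without saline 16, and 32 without APAP 17. The root mean square difference over all genes was 0.170, close to the root mean square SE of 0.167. In the wild-type livers the same figures were 0.181 and 0.167.

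The upper bound on the response was taken from the same fit. A gene was held within 2-fold when a pair of one-sided moderated tests placed its difference inside 2-fold at an adjusted p under 0.05. By this rule 8295 genes (97.9%) were held within 2-fold and 7547 (89.1%) within 1.5-fold, and 174 (2.05%) were not held within 2-fold. The outer end of the 95% interval had a median of 0.38, or 1.30-fold, and a 95th percentile of 0.84, or 1.80-fold. With intervals that cover all genes at once, the median outer end was 1.15, or 2.23-fold. By that measure 2727 genes (32.2%) lay within 2-fold and 7680 (90.7%) within 4-fold. Array number sets this precision: at the median SE a lone gene would have needed a difference of 1.05, or 2.07-fold, to pass the test. If 100 genes had moved alike, 0.61, or 1.53-fold, would have been enough. The 174 genes not held became 335 without saline 16, 313 without saline 5, 281 without APAP 17 and 263 without APAP 2. They became 221 without APAP 3 and fell to 149 without saline 4.

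**Figure D1:**
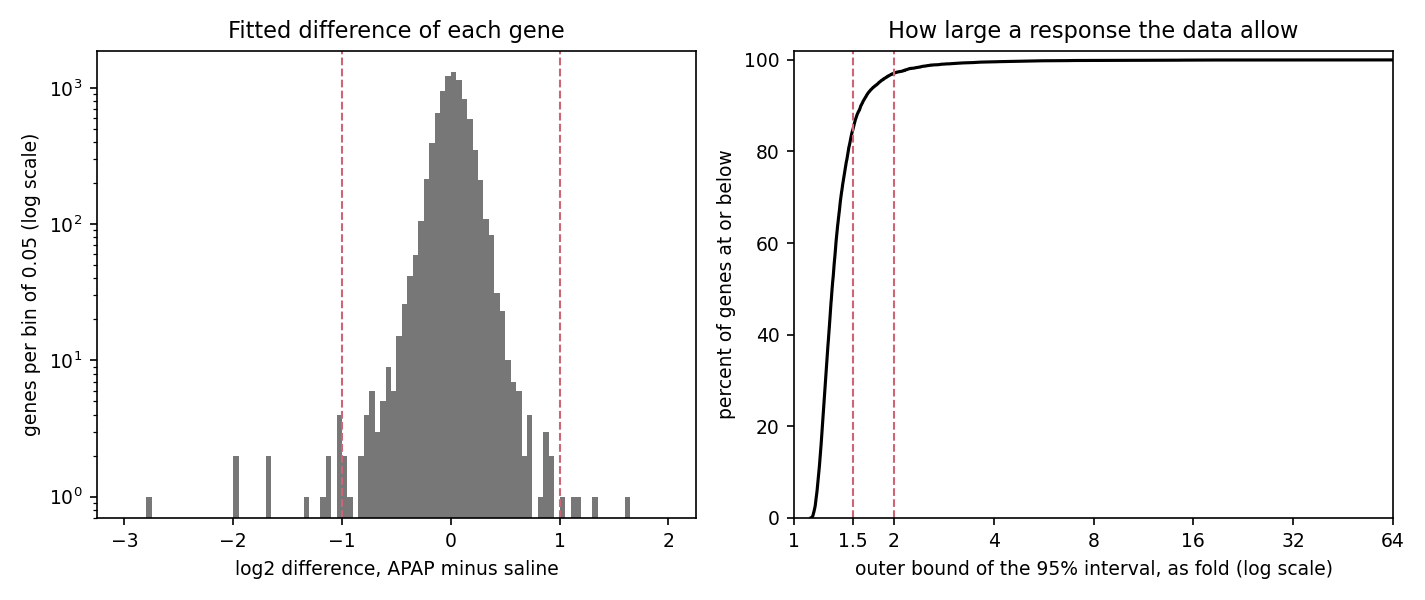
The left panel counts the 8469 tested genes by log2 difference, APAP minus saline (bins of 0.05, log count axis), with dashed lines at 2-fold. The right panel gives the percent of genes whose outer 95% bound is at or below each fold (log axis, drawn up to 64-fold): the median is 1.30-fold and the 95th percentile 1.80-fold.

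The livers of a treatment differed from each other about as much as from livers of the other treatment. The root mean square difference between a pair of livers ran from 0.281 to 0.509 for the 6 pairs within a treatment, with a median of 0.375. For the 9 pairs across treatments it ran from 0.216 to 0.493, with a median of 0.368. The ratio of the medians was 0.980. The closest pair of all was saline 5 and APAP 2 (0.216), with 23 genes over 2-fold apart, and the farthest was saline 4 and saline 16 (0.509), with 403. Pairs within an array set were closer: the 5 such pairs across treatments had a median of 0.263, and the 2 within a treatment 0.326.

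A first principal component with 49.9% of the variance separated the array sets and spread the livers of the higher set. It put saline 16 at 21.6 and APAP 17 at 19.7, saline 4 at -21.8 and the other 3 livers between -10.8 and -2.9. On the next component, with 23.5%, saline 4 stood at 18.7 and the other livers between -11.2 and 5.4. Neither component separated the treatments. Across genes, which are not independent replicates, the APAP difference within the higher set correlated with that in the lower set at Pearson -0.03 and Spearman 0.02, and 51.7% of genes had the same sign in both.

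**Figure D2:**
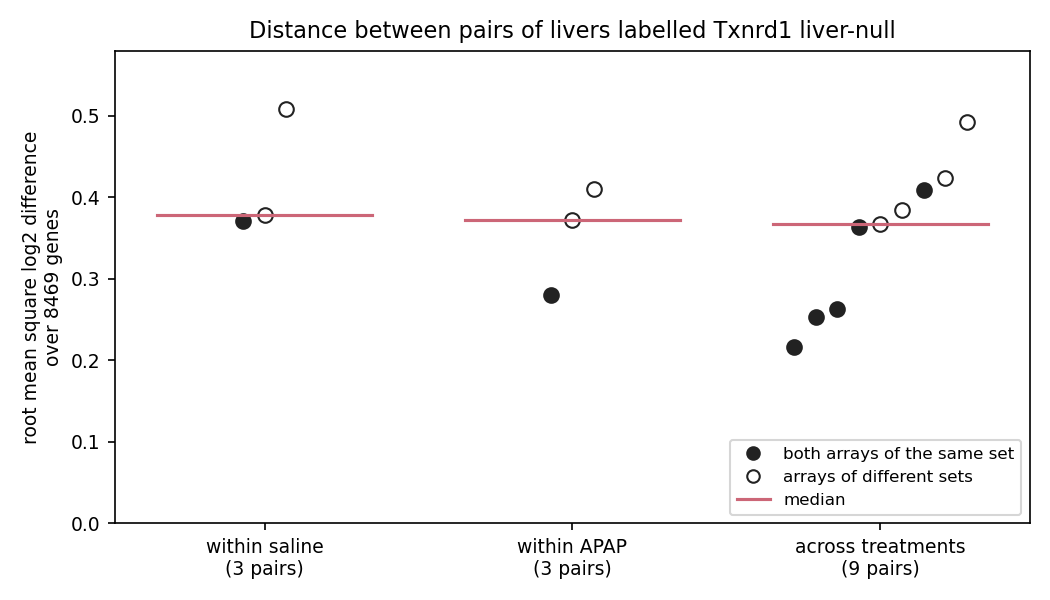
Each point is a pair of livers, placed by the root mean square log2 difference over 8469 genes, for the 3 pairs within saline, 3 within APAP and 9 across treatments; filled points are pairs of the same array set and red lines are medians. The pairs across treatments, at 0.216 to 0.493, overlap the pairs within, at 0.281 to 0.509, and the farthest pair is within saline.

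Spread was uneven among livers and genes. Pooled within the treatments, 44 genes (0.520%) had an SD above 1, and the median was 0.193. The median SD over 3 livers was 0.191 for saline and 0.167 for APAP, and 66 genes in saline and 35 in APAP had an SD above 1. Saline 4 was more than 2-fold away from the mean of the other livers of its group at 203 genes, saline 16 at 178 and APAP 17 at 129. The other livers stood so far away at 42 to 79 genes.

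The enzymes that make NAPQI read nearly the same in all livers. Cyp2e1, the main oxidase of APAP, read 13.13, 13.10 and 13.21 in the saline livers and 13.12, 13.16 and 13.18 after APAP. The groups overlapped fully, with a difference of 0.01 (SE 0.08, 95% interval -0.16 to 0.18). Cyp3a11 differed by 0.03 (SE 0.08) and Cyp1a2, read at 11.26 to 11.55 in saline and 11.29 to 11.61 after APAP, by 0.10 (SE 0.16). All 6 tested genes of the list of APAP-activating P450s and their reductase were held within 2-fold. Their median difference was 0.03 beside 0.02 over all genes. All 6 means were above saline as deposited, but with arrays centred on their median Cyp2e1 stood at -0.04 and Cyp3a11 at -0.02.

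Conjugation and export genes differed little. Of 7 tested glucuronidation genes 6 were held within 2-fold, with Ugt2b38 as the exception and a median of 0.14. In plain differences of group means, without the covariate, the median was -0.04 without saline 4, whose list mean was -0.54 against the average of the 6 livers. All 8 sulfation genes were held (median 0.05). Sult1a1, which sulfates phenols such as APAP, read 10.67, 10.01 and 10.42 in saline and 9.73, 10.59 and 10.24 after APAP, with overlap and a difference of -0.18 (SE 0.25). Of 10 efflux transporters 9 were held (median 0.10, Abcb1b not held), and Abcc2, which exports conjugates into bile, differed by 0.20 (SE 0.14).

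Glutathione genes differed by small amounts, none past the test. Gclc, the catalytic subunit of the rate-limiting enzyme of glutathione synthesis, read 10.38, 11.20 and 10.76 in the saline livers and 11.25, 10.99 and 11.14 after APAP. Saline 5 lay among the APAP livers, and the difference was 0.34 (SE 0.27, 95% interval -0.25 to 0.94). It was 0.18 without saline 4, 0.61 without saline 5 and 0.22 without saline 16. Its modifier subunit Gclm differed by 0.13 (SE 0.13). Gsr, which regenerates reduced glutathione, read 7.45, 7.77 and 7.60 in saline and 7.87, 7.82 and 7.78 after APAP. These groups did not overlap, as was the case with higher APAP arrays for 269 of all genes (3.18%), and the Gsr difference was 0.22 (SE 0.10, unadjusted p = 0.0608 and adjusted p = 0.995, limma). Of 16 tested genes of glutathione synthesis and recycling 15 were held within 2-fold, with a median of 0.08 and a higher mean after APAP for 11, and Chac1, a glutathione-degrading enzyme, was not. All 20 glutathione S-transferases were held, with a median of 0.00 and a range from -0.18 (Gstt2) to 0.18 (Gstm7).

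NRF2 targets stayed close to their saline level. Of 24 tested, 20 were held within 2-fold, 1 had arrays that did not overlap (Gsr), against 4.89% of all genes, and the median was 0.04. Nqo1 read 6.63, 6.90 and 6.58 in saline and 6.70, 7.02 and 6.55 after APAP, which overlapped, with a difference of 0.05 (SE 0.38, 95% interval -0.79 to 0.89). The 4 not held were Hmox1, Cbr3, Osgin1 and Slc48a1. Cbr3, a carbonyl reductase, read 9.99, 10.53 and 9.84 in saline and 10.48, 10.39 and 10.33 after APAP. Its pooled SD in these livers was 0.26, and the SDs of the wild-type groups that share the fit were 2.65 and 1.71, beside a fitted SE of 0.95.

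Hmox1, which breaks down heme, read 8.65, 7.43 and 4.28 in saline and 8.14, 4.14 and 4.58 after APAP, so high and low livers stood in both groups. The difference was -1.16 (SE 0.98), with a 95% interval from -3.33 to 1.00. It was -0.13 without APAP 3, -0.41 without saline 4, -2.23 without saline 16 and -2.26 without APAP 2.

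The thioredoxin system and the supply of NADPH were held within 2-fold throughout. All 18 tested thioredoxin, peroxiredoxin and peroxide genes were held (median -0.02). Txn1, the cytosolic thioredoxin that Txnrd1 reduces, read 11.43, 11.51 and 11.31 in saline and 11.54, 11.39 and 11.25 after APAP, with full overlap. Srxn1, which repairs oxidised peroxiredoxins, differed by 0.22 (SE 0.20), with -0.11 in the higher array set and 0.89 in the lower. For NADPH supply with the pentose phosphate pathway, all 12 genes were held (median 0.03), as were all 27 of the mitochondrial respiratory chain (median 0.01) and all 25 proteasome genes (median 0.05).

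**Figure D3:**
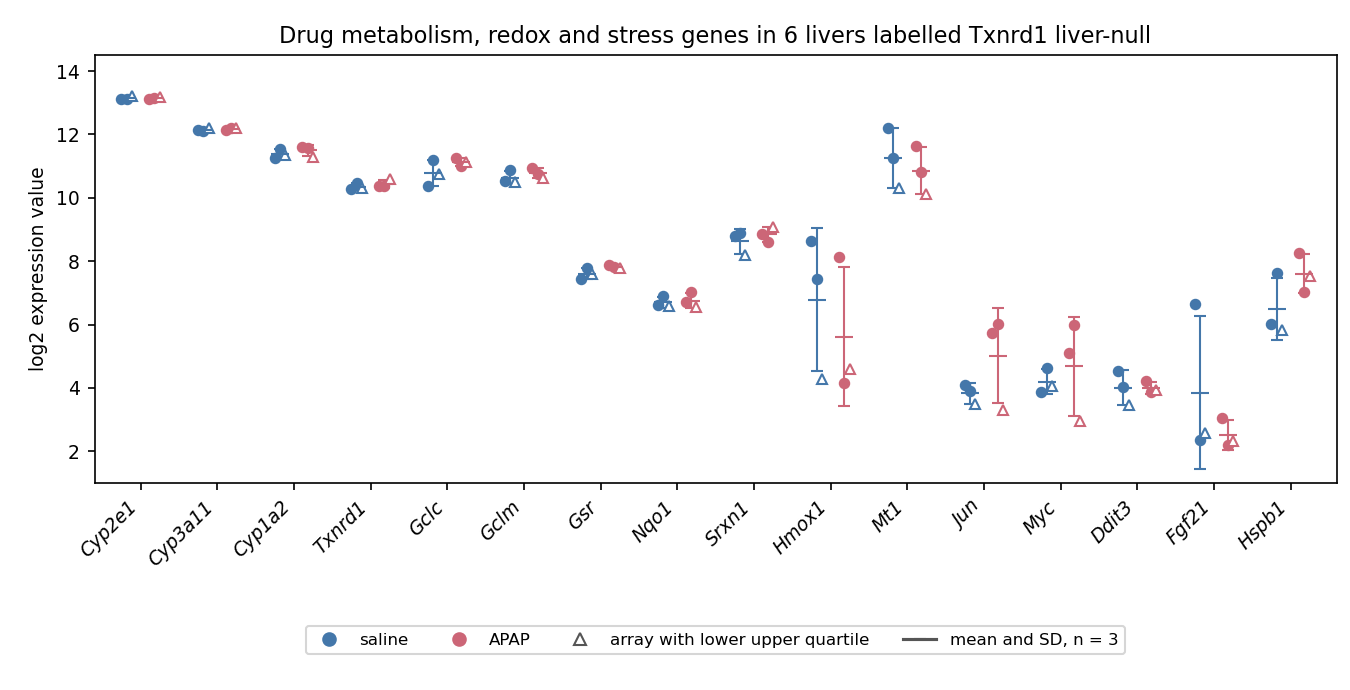
Log2 expression values of 16 drug metabolism, redox and stress genes in each of the 6 livers; bars are the mean and SD of 3 livers, and triangles mark the array of the lower set. Cyp2e1, Cyp3a11 and Txnrd1 are tight in every liver, Hmox1 is spread over both treatments, and Jun is higher in 2 of 3 APAP livers.

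Some genes of MAP kinase signalling had higher means after APAP. Jun, a transcription factor subunit that is a target of JNK signalling, read 4.11, 3.89 and 3.48 in saline and 5.74, 6.02 and 3.29 after APAP. APAP 2 and 3 stood above all saline livers and APAP 17 below them, so the groups overlapped. The difference was 1.19 (SE 0.44, 95% interval 0.23 to 2.16, adjusted p = 0.995, limma). It was 1.88 within the higher array set and -0.19 within the lower. The other Jun probe set, with means of 3.96 in saline and 4.25 after APAP, differed by 0.29, and the mean of both gave 0.74. Without APAP 17 the Jun difference was 1.92 and Jun had the smallest adjusted p of that fit, 0.131 (limma). In wild-type livers the Jun difference was 1.48 (SE 0.44), and the interaction of -0.29 (SE 0.62) did not pass the test (adjusted p = 0.985, limma).

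Dusp6, a phosphatase that dampens ERK signalling, had arrays that did not overlap, as was the case with higher APAP arrays for 3.18% of all genes. It read 7.58, 7.41 and 7.74 in saline and 8.03, 8.94 and 8.61 after APAP, a difference of 0.95 (SE 0.38). That was 0.99 in the higher array set and 0.87 in the lower. Myc read 5.11 and 5.99 in APAP 2 and 3 and 2.95 in APAP 17, against 3.88 to 4.64 in saline. Fos, an immediate early gene, read 2.59 to 2.88 in all 6 livers. Of 19 tested genes of immediate early and MAP kinase feedback 13 were held within 2-fold, and the median was 0.11 beside 0.02 over all genes. An unadjusted p under 0.05 (limma) was found for 2 of the 19, both higher, and for 1.87% of all genes in that direction. Atf3 and Egr1 were below the filter at 1.53 to 2.22.

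The heat shock list had the highest median of the 40 gene lists, 0.18. Of 16 tested members 15 had a higher mean after APAP, against 55.9% of all genes, and 13 were held within 2-fold. Hspb1, a small heat shock protein, read 6.03, 7.63 and 5.82 in saline and 8.26, 7.03 and 7.52 after APAP. Saline 5 lay within the APAP range, and the difference was 1.11 (SE 0.47), which was 0.72 without saline 16 and 1.69 without saline 5. Hsp90aa1 differed by 0.46 (SE 0.22) and Hspa4l by 0.47 (SE 0.17), while Hspa1b, an inducible HSP70, had a difference of -0.29 (SE 0.57). The mean of the list was lowest on saline 16, at -0.50 against the average of the 6 livers.

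Genes of endoplasmic reticulum stress, amino acid stress and DNA damage gave no call. The ER chaperone list had a median of -0.09 with 20 of 21 held within 2-fold, the ATF4 list -0.07 with 17 of 21 held, and the p53 list -0.05 with 15 of 16 held. Ddit3, a death-linked target of ATF4, differed by -0.01 (SE 0.21). Bbc3, a p53 target that promotes apoptosis, read 4.19, 4.32 and 4.27 in saline and 4.05, 4.01 and 4.05 after APAP, without overlap, a difference of -0.23 (SE 0.09). Fgf21, a stress hormone of the liver, read 6.65 in saline 4 and 2.19 to 3.06 in the other 5 livers, so its difference of -1.33 was 0.00 without that liver and -2.29 without saline 5. The metallothioneins Mt1 and Mt2 ranged over 10.13 to 12.20 and 9.10 to 11.73, with differences of -0.40 (SE 0.81) and -0.29 (SE 1.10). The array of the lower set read lowest in each group, at 10.31 and 10.13 for Mt1 and 9.46 and 9.10 for Mt2. Within the higher and the lower array set, Mt1 differed by -0.51 and -0.18 and Mt2 by -0.26 and -0.35. A fit to these livers alone, with the array set, gave SEs of 0.30 for Mt1 and 0.23 for Mt2. It held both within 2-fold, which the fit shared with wild-type livers did not. In that shared fit both differences moved with single livers. Mt1 was 0.00 without saline 4, -0.70 without APAP 2, -0.77 without saline 16 and -0.17 without APAP 17. Mt2 was 0.01 without saline 4, -0.10 without saline 5, -0.91 without saline 16, -0.80 without APAP 2 and 0.38 without APAP 17. With its probe sets averaged, Mt1 differed by -0.12.

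Acute phase genes, which the liver secretes in inflammation, had lower means after APAP and a wide spread. Of 25 tested, 0 passed the test, 2 had a higher mean after APAP against 55.9% of all genes, and the median was -0.37. Of the 25, 5 had APAP arrays all below saline, against 145 of all genes (1.71%), and 13 were held within 2-fold. Orm2, an orosomucoid of plasma, read 10.08, 9.10 and 8.30 in saline and 6.32, 6.69 and 6.16 after APAP. The groups were far apart, and the difference of -2.77 (SE 1.03, 95% interval -5.04 to -0.50, unadjusted p = 0.0216 and adjusted p = 0.995, limma) was the largest of any tested gene. Its SDs were 1.17 and 2.51 in wild-type saline and APAP livers, which share the fit, and 0.89 and 0.27 in these. A fit to the 6 livers alone, with the array set, gave an SE of 0.31 and an interval of -3.51 to -2.03. Orm2 had the smallest p of that fit, which called 0 genes (smallest adjusted p = 0.575, limma).

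The serum amyloid genes followed with smaller gaps. Saa2 read 13.21, 11.96 and 11.81 in saline and 11.25, 10.89 and 11.48 after APAP, a difference of -1.12 (SE 1.10). Saa1 read 13.38, 12.67 and 12.56 against 12.28, 11.90 and 12.16, a difference of -0.75 (SE 0.77). Neither pair of groups overlapped, and their probe sets may bind each other's transcripts. The SEs share their spread with the wild-type saline and APAP livers, whose SDs were 0.96 and 2.82 for Saa2 and 0.88 and 1.93 for Saa1. In these livers the SDs were 0.77 and 0.30 for Saa2 and 0.45 and 0.19 for Saa1. A fit to these livers alone, with the array set, called no gene. It gave SEs of 0.38 for Saa2 (interval -2.03 to -0.21) and 0.23 for Saa1 (interval -1.29 to -0.21). Saa3 read 12.09, 10.17 and 8.33 against a mean of 8.23 ± 1.12 (SD, n = 3) after APAP, with overlap. Its difference of -1.97 (SE 0.88) was -1.12 without saline 4. The protease inhibitor Serpina3n read 11.89, 10.03 and 10.09 against 9.91, 9.71 and 9.96. Orm1 completed the 5, with a difference of -0.37 (SE 0.21).

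The size of the list's difference depended on saline 4. The mean of the list was 0.99 above the average of the 6 livers on saline 4, -0.01 and -0.11 on saline 5 and 16, and -0.24, -0.27 and -0.36 on APAP 2, 3 and 17. Without saline 4 the median difference of the list was -0.06, and without any other liver it was -0.50 to -0.29. These medians are of plain differences of group means, without the array set as a covariate. Lcn2, an iron-trapping acute phase protein, read 12.96 in saline 4 and 8.63 to 9.54 in the other 5. Its interval of -6.00 to 2.63 was the widest of all genes, in a fit that shares its spread with the wild-type livers. The Lcn2 SDs were 3.37 and 3.83 in wild-type saline and APAP livers and 1.99 and 0.48 in these. In the fit to the 6 livers alone the Lcn2 interval was -3.73 to 0.35. In the fit without saline 4 the differences were -2.35 for Orm2, -0.63 for Saa2, -0.52 for Lcn2 and -0.21 for Serpina3n, and 5 of the 25 had APAP arrays below saline, beside a background of 3.66%. Of 12 listed neutrophil and monocyte markers 9 were on the array and 4 above the filter. The mean of these 4 was 0.90 on saline 4 and -0.33 to 0.02 on the others. Their summed level was 4.78 to 6.61 on the log2 scale in saline and 4.86 to 5.21 after APAP. S100a8, a calcium-binding protein of neutrophils, read 5.57 on saline 4 against 3.18 to 3.97 elsewhere. The 4 markers did not move alike. S100a8 and S100a9 were not held within 2-fold, and their differences of -0.44 and -0.56 were 0.22 and 0.20 without saline 4. The other 2 were held, with Ccr2 at a difference of 0.05. The part of these cells in the result was not tested.

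The promoters of Saa1, Saa2 and Orm2 are printed. With Serpina3n, these are the acute phase genes among the 10 largest lower values with arrays apart, a choice made on those values. The Serpina3n window, which holds no match to the motif below, is not printed, so the printed windows are those with a match. The 250 bases before the annotated start were taken from RefSeq (GRCm38.p6), and capitals mark matches to TTGCNNAA, a core that C/EBP factors of the acute phase response bind, searched on both strands. Saa1 lies at chr7:46742981-46743230 on the minus strand, Saa2 at chr7:46751583-46751832 on the plus strand and Orm2 at chr4:63362199-63362448 on the plus strand.
Saa1: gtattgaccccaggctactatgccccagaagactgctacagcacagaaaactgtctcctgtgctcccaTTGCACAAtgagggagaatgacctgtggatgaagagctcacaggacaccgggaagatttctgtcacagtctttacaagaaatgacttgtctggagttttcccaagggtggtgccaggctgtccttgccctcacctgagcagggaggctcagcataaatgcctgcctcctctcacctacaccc
Saa2: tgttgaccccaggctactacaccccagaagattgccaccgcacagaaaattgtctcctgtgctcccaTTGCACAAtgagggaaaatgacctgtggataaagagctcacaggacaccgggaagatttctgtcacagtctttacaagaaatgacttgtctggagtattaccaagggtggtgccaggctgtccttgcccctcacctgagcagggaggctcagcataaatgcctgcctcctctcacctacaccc
Orm2: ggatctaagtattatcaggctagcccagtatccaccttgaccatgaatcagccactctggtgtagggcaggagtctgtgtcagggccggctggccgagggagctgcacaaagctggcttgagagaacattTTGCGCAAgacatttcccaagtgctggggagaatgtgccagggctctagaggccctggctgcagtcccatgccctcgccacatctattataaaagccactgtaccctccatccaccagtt
Each of these 3 windows holds 1 match, and the Serpina3n window at chr12:104406458-104406707 holds 0. Of all 32851 promoters 9.56% have a match in a window of that length. The motif TTCNNNGAA, bound by STAT factors and not overlapping these letters, has 0 matches in the 4 windows and 7.02% of all promoters hold it. The Saa1 and Saa2 windows are 95.6% identical, with 238 of 249 aligned bases the same. A match describes letters only.

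Macrophage and cytokine genes varied by liver. The Kupffer cell marker list, with 11 of 12 tested, had a median of -0.17 and 10 members held within 2-fold. Its mean was 0.40, 0.50 and -0.49 on saline 4, 5 and 16 and 0.48, -0.09 and -0.80 on APAP 2, 3 and 17, lowest on the 2 arrays of the lower set. The summed level of these markers was 10.78 to 11.48 in saline and 10.54 to 11.58 after APAP, and its part in the values below was not tested. Marco, a scavenger receptor of macrophages, read 7.38, 6.02 and 3.22 in saline and 5.30, 3.28 and 2.13 after APAP. The groups overlapped, and the difference of -1.97 had a 95% interval from -3.85 to -0.10 and was -1.25 without saline 4. Clec4f, a marker of resident Kupffer cells, differed by 0.22 (SE 0.13). Cytokine and chemokine genes had a median of -0.15, with 12 of 17 held, and interferon-stimulated genes -0.09, with 23 of 24 held. Ifi47, an interferon-induced GTPase, read 7.49, 7.83 and 7.29 in saline and 7.12, 7.08 and 7.10 after APAP without overlap (difference -0.43, SE 0.19).

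**Figure D4:**
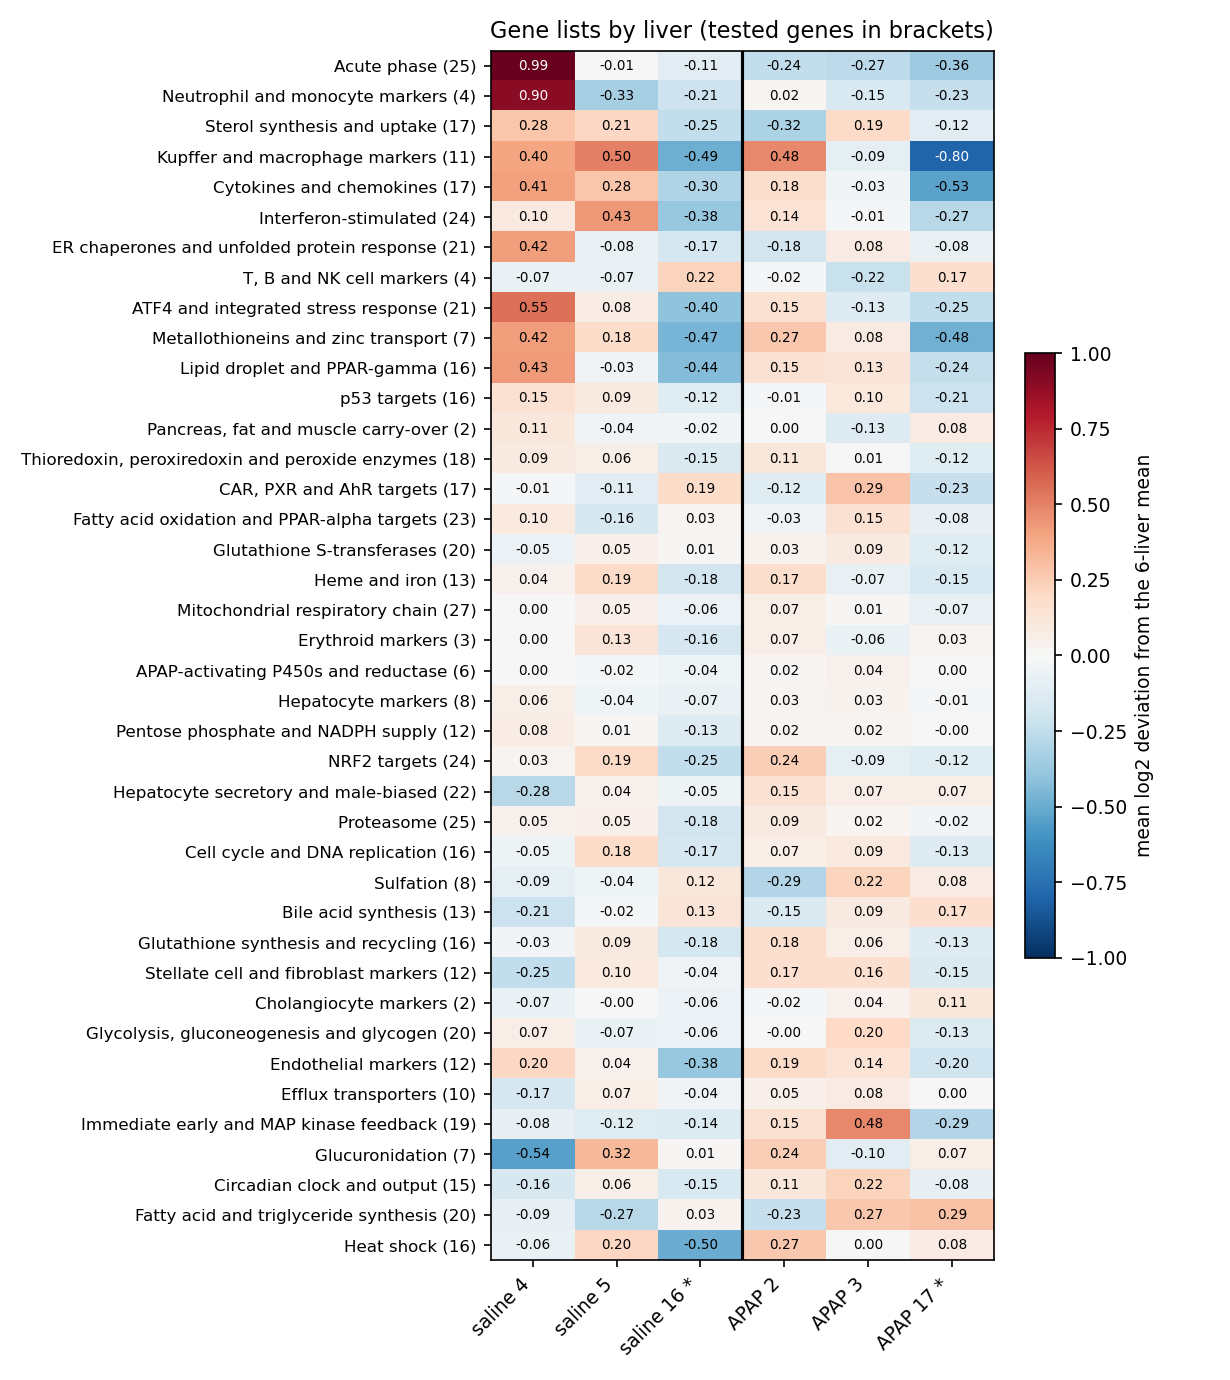
Each cell is the mean log2 deviation of a list's tested genes from their 6-liver mean, for 40 lists (rows, ordered by median APAP difference) and 6 livers (columns; an asterisk marks the lower array set, and the black line divides saline from APAP). Saline 4 stands out for acute phase genes at 0.99, and both starred arrays are low for Kupffer markers.

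Lipid and sugar metabolism gave wide values with no call. Genes of fatty acid and triglyceride synthesis had a median of 0.16, and 14 of 20 were held within 2-fold. Srebf1, a master regulator of lipogenesis, read 5.98, 7.14 and 8.78 in saline and 6.89, 8.83 and 9.21 after APAP, and its difference was 1.00 (SE 0.61). The array of the lower set read highest in each group. Angptl8, a secreted regulator of lipoprotein lipase, read 5.15, 5.19 and 5.84 in saline and 5.41, 6.81 and 7.90 after APAP, a difference of 1.32 (SE 0.49, 95% interval 0.23 to 2.40). Sterol synthesis and uptake had a median of -0.19 with 14 of 17 held, and Hmgcs1, an early enzyme of that pathway, read 10.20, 10.31 and 10.09 in saline and 9.10, 10.03 and 10.04 after APAP. Its difference of -0.47 was -0.14 without APAP 2. Fatty acid oxidation had a median of 0.00 with 21 of 23 held, and Acot1, an acyl-CoA thioesterase of that list, had APAP arrays above saline by 0.58 (SE 0.39). Its SDs in wild-type saline and APAP livers were 0.36 and 1.06. In the fit to the 6 livers alone, which called 0 genes, its SE was 0.11 (95% interval 0.31 to 0.84). Igfbp1, an insulin-repressed gene, read 9.32, 7.52 and 8.03 in saline and 7.45, 8.30 and 6.21 after APAP, with overlap. Its difference of -0.97 (SE 0.47) was -0.62 without saline 4, -1.58 without saline 5 and -0.64 without saline 16.

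Clock genes had a median of 0.15, and all 15 tested were held within 2-fold. Per1 read 4.76, 4.62 and 4.22 in saline and 5.06, 5.33 and 4.45 after APAP, a difference of 0.41 (SE 0.16). Bile acid synthesis had a median of 0.06 with 11 of 13 held, and CAR, PXR and AhR targets -0.01 with 15 of 17 held. Cyp7a1, the rate-limiting enzyme of bile acid synthesis, differed by 0.16 (SE 0.21). Over all 40 lists, which hold 556 tested genes, 0 had a called member and 70 members were not held within 2-fold. The list medians did not exceed 0.37 in size.

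Among genes whose groups did not overlap, sizes were modest. There were 414 such genes (4.89%), with a median difference of 0.21 in size, and 10 of them differed by over 1.5-fold. In wild-type livers 425 genes (5.02%) were apart in this way. Of the genes apart in both genotypes 13 had the same direction and 11 the opposite. The 10 largest higher values were those of Dusp6, Ralgps2, Acot1, Spryd7, Chordc1, Egfr, Usp14, Cd24a, Abcb10 and Pla1a, from 0.95 down to 0.50. Egfr, the epidermal growth factor receptor, read 8.65, 8.62 and 8.47 in saline and 9.16, 8.90 and 9.27 after APAP, a difference of 0.53 (SE 0.25), but 0.18 when all its probe sets were averaged and 0.25 without APAP 17. Chordc1, an HSP90 partner, read 7.66, 8.12 and 7.15 against 8.17, 8.19 and 8.27, and its difference of 0.56 was 0.37 without saline 16.

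The 10 largest lower values were those of Orm2, Saa2, Prg4, Serpina3n, Sugct, Saa1, Gfra1, Taok3, Nme7 and Hmgcs1, from -2.77 to -0.47. Prg4, a secreted proteoglycan, read 10.41, 9.47 and 9.38 in saline and 8.74, 8.55 and 9.03 after APAP, a difference of -0.98 (SE 0.41). Sugct, a mitochondrial CoA-transferase, read 5.09, 5.02 and 5.30 against 4.12, 3.97 and 4.94. That gap of -0.80 (SE 0.22, unadjusted p = 0.00461, adjusted p = 0.995, limma) was -1.02 in the higher array set and -0.36 in the lower. Cd24a had the smallest unadjusted p of the named genes, 0.00378, with a difference of 0.51 (SE 0.14) at levels of 2.33 to 3.50, near the array medians of 2.91 to 2.98.

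The genes of widest spread differed by several log2 units within a group. With 1 array of the lower set a group, that array's liver and the set cannot be told apart there. Cxcl13, a B cell chemokine, had the largest pooled SD, 2.35, and read 8.71, 7.09 and 3.27 in saline and 6.37, 4.85 and 2.80 after APAP. It was lowest on the array of the lower set in each group, as was Marco. The Cxcl13 difference of -1.69 was -0.68 without saline 4, -3.13 without saline 16 and -1.06 without APAP 17. Hsd3b5, a male-biased steroid enzyme, read 4.59 in saline 4 and 8.76 to 9.63 in the other 5 livers. Its difference of 1.64 (SE 0.91) was 0.15 without saline 4 and 2.54 without saline 5. Cyp26a1, which breaks down retinoic acid, read 3.41, 6.20 and 8.28 in saline and 3.78, 5.56 and 5.50 after APAP. The PPAR-alpha target Cyp4a14 read 8.46, 5.28 and 9.72 against 7.13, 9.63 and 7.33. The others of the 10 were Hmox1, Cyp2b9, Marco, Gadd45g, Fgf21 and Socs2.

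**Figure D5:**
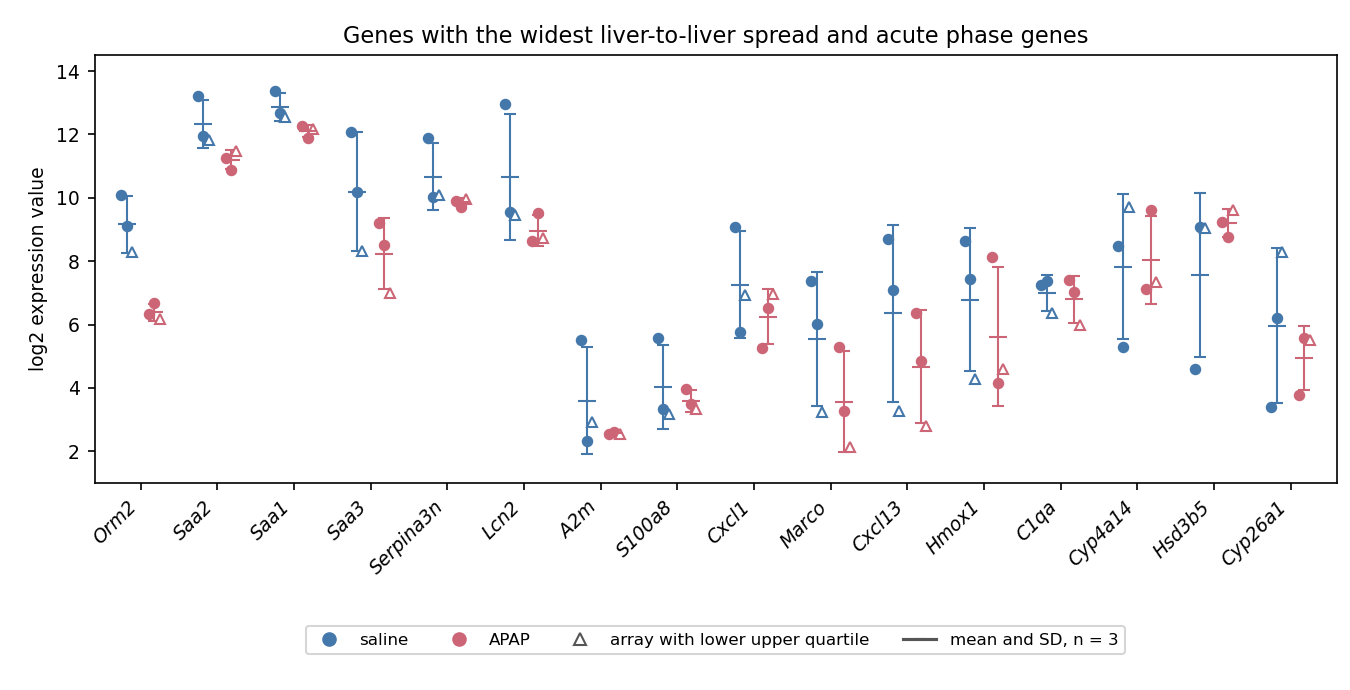
Log2 expression values of 16 acute phase and widely spread genes in each of the 6 livers; bars are the mean and SD of 3 livers, and triangles mark the array of the lower set. Saline 4 is the highest liver for Saa3, Serpina3n and Lcn2 and the lowest for Hsd3b5, and the groups are apart for Orm2.

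The bound was weakest for the 174 genes not held within 2-fold. Their median pooled SD was 0.73 against 0.193 over all genes. For 69 of them the wild-type livers had the wider spread. A fit to the 6 livers alone left 136 genes not held, of which 124 were among the 174. Of 40 listed stress and metabolism genes, clock genes among them, 33 were tested, 17 held within 2-fold and 0 called. Of the remaining 7, 6 were below the filter (Slc7a11, Atf3, Egr1, Gadd45b, Tnfaip3 and Arntl), and Gdf15 had no probe set of its own.

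No test separated the response of these livers from that of wild-type livers. In wild-type livers limma called 0 genes (0%), with 434 at an unadjusted p under 0.05. The genotype by treatment interaction also called 0 genes (0%), with 326 at an unadjusted p under 0.05. The responses of the genotypes, which share no array, correlated across genes at Pearson -0.12 and Spearman -0.04. Orm2 differed by 1.57 (SE 1.03) in wild-type livers and Hspb1 by -0.93 (SE 0.47), the opposite signs to the liver-null values. Their interactions were -4.34 (SE 1.45) and 2.04 (SE 0.66), with an adjusted p = 0.959 for each (limma).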

How the data were processed

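The authors deposited log2 expression values per probe set, made with RMA, which corrects background, normalizes and summarises Affymetrix probes, per the submitters' processing notes. The version and settings of RMA are unknown here, and arrays have no count of depth. Names came from the platform annotation. A gene is its 1-symbol probe set of highest mean, tested where at least 3 of 12 arrays exceeded their 40th percentile. The fit used limma 3.58.1 (R 4.3.3, checked on simulated data) with 4 group means over 12 arrays, which share an estimate of spread, and the array set, split at the largest gap in the 75th percentile. Adjustment was by Benjamini-Hochberg over 8469 genes, two-sided, and bounds used one-sided tests from that fit. Pooled SD is within treatments over the 6 livers.

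Named genes are 40 stress and metabolism genes, Txnrd1 among them, the 10 largest differences in each direction with arrays apart, up to 2 members per list with the smallest p and the 10 genes of widest spread. Ugt2b38, Abcb1b, Gstt2, Cbr3, Osgin1, Slc48a1, Txn1, Sult1a1, Hsp90aa1, Srebf1, Orm1 and Ccr2 were named after their values were seen. The comparison, the array set, members and lists were chosen with earlier results of these data known. Alternatives were other covariates, filters, features, scalings, variance models, array weights, fits to 6 arrays and leaving out each array.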

Additional observations from a re-analysis of the deposited data

How the results depend on the processing

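The count of called genes was 0 in the liver-null response, the wild-type response and the interaction under every alternative run, with 59 to 415 liver-null genes at an unadjusted p under 0.05 (limma). The smallest adjusted p in the liver-null response ranged from 0.131 without APAP 17 to 1.00. Held within 2-fold were 8253 to 8356 of 8469 genes under other covariates, scalings, variance models, array weights and 6-array fits, 8134 to 8320 with 1 of the 6 livers left out, 12223 of 12393 with no filter, 5585 of 5735 with a stricter filter and 7829 of 7974 with probe sets averaged. Testing every probe set with 1 gene symbol gave 12894 of 13124, a larger count because more features were tested. The ratio of distances across to within treatments was 0.841 to 1.01 with 1 liver left out, and 0.808 for pairs of the same array set. Of 2048 values of named genes under alternatives, 0 passed the threshold, 17 moved by more than the pooled SD and 51 changed sign. Those that changed sign from a difference over 1.5-fold were Cyp26a1 (0.27) and Cyp2b9 (0.05) without saline 16 and Fgf21 (0.00) without saline 4. No paired analysis was possible because the groups share no replicate number. The number of arrays limits precision, and values near the array medians have little signal over background.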

Other observations

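Probe sets with no gene symbol or with several were left out of the gene tests. Of 2246 such probe sets 1200 passed the same filter, and limma called 0 of them (smallest adjusted p = 0.963), with 36 at an unadjusted p under 0.05. Of the 1200, 1169 were held within 2-fold and 2 differed by over 2-fold.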
